A study of Mus musculus with 8 samples.

Results

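The early transcriptional response to cAMP was followed in mouse pancreatic islets through 8 genes: the orphan nuclear receptors *Nr4a1*, *Nr4a2* and *Nr4a3*, the AP-1 genes *Fos*, *Junb* and *Fosl2*, the MAP kinase phosphatase *Dusp1*, and *Ppargc1a*, which encodes the coactivator PGC-1α. They were chosen by name, as were the gene lists set beside them, with earlier results of these data known. All 8 were among the 17362 genes of the deposited single nucleus RNA-seq (snRNA-seq) table. Islets came from WT mice or from whole-body knock-in mice carrying Med14 S983A, a Ser-to-Ala change in the scaffold subunit of the Mediator complex. Hand-picked islets of each genotype were cultured untreated (CON), with forskolin (FSK), an activator of adenylyl cyclase, or with Exendin-4 (Ex-4), an agonist of the GLP-1 receptor, at 10 nM for 16 h. FSK was also given for 16 h, and the sources used here state no FSK dose for islets. Nuclei were taken from about 100 islets per sample, and the number of mice behind each sample is not stated. The mutant was on a C57BL/6J background, and it is a point mutant, so the *Med14* RNA level is no check of the genotype. The deposited values are 1 pool of nuclei per condition and cell type, which leaves no replicates: intervals here cover counting error only, no test between conditions was possible, and condition cannot be told apart from islet preparation or barcoding well.

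When cAMP rises, protein kinase A phosphorylates the transcription factor CREB, which sits on cAMP response elements close to the start sites of its targets and recruits CBP/p300 and CRTC coactivators. Its classic targets encode transcription factors (the NR4A receptors, FOS and JUNB), coactivators (PGC-1α) and feedback inhibitors of kinase signaling (DUSP1), and they are known as genes that respond early and then decline. In beta cells this pathway is the main route by which GLP-1 agonists reach the genome. The question for these genes was whether they were above the untreated level after FSK, and 16 h after Ex-4, in each genotype.

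The sequence before the start sites is shown because the cAMP response element is what groups these genes as CREB targets. RefSeq promoter windows (table build GRCm38.p6) were found for all 8 genes, and each had 1 exact match in GRCm39, which gives the coordinates printed with each stretch. In the 250 bases before the RefSeq start, the core letters TGACG, read on either strand, were found in 7 of 8, against 17.8% of 32851 promoters. *Nr4a1*, *Nr4a2* and *Nr4a3* held 4 copies each, *Fos* 2, *Junb* 1 and *Ppargc1a* 1. The full element TGACGTCA, which contains the core on both strands, was found in *Dusp1* alone of the 8, between −143 and −136, against 1.55% of promoters. *Fosl2* held neither, and none of the 8 held the AP-1 letters TGANTCA (N is any base), against 6.75% of promoters. Capitals mark the core or the full element, on whichever strand it lies, in the stretches that follow, all 5′ to 3′ on the strand of the gene. The *Nr4a1* and *Nr4a3* stretches stop where an annotated exon begins and leave out 2 and 1 of their copies, and that of *Nr4a2*, with 2 of its 4 copies, is short because it lies inside its first exon in GENCODE.
Nr4a1 (chr15:101164482-101164656, + strand, −245 to −71): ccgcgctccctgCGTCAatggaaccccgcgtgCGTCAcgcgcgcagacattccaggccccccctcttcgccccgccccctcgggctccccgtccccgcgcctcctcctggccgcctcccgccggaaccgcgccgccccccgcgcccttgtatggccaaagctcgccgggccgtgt
Nr4a2 (chr2:57014119-57014148, − strand, −133 to −104): ccggccgggcTGACGgggccgcTGACGcgc
Nr4a3 (chr4:48045062-48045152, + strand, −243 to −153): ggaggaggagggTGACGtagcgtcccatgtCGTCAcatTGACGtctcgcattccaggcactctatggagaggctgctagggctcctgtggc
Fos (chr12:85520523-85520614, + strand, −141 to −50): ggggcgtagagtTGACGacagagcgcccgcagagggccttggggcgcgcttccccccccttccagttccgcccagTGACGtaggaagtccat
Junb (chr8:85705467-85705495, − strand, −118 to −90): gcttcctgacagTGACGcgagccgcctcc
Dusp1 (chr17:26727570-26727649, − strand, −203 to −124): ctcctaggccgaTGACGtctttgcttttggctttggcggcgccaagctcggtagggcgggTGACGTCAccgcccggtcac
Ppargc1a (chr5:51725100-51725128, − strand, −61 to −33): ggtgccctcccaCGTCActgagctccagt

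Counts were recovered from the deposited values, and levels are given as counts per 10000 counts of the column (CP10K). Column totals ran from 1915006 to 3094377 in beta cells, from 269394 to 810127 in alpha cells and from 362410 to 631433 in delta cells, so that beta cells gave the most reliable values. The cell type names were checked against marker genes: summed beta cell markers were at 47.7 to 66.1 CP10K in the beta columns, alpha cell markers at 39.6 to 126 in the alpha columns, and delta cell markers at 4.40 to 9.75 in the delta columns. Beta cell markers were also at 12.7 to 34.0 CP10K in the alpha columns and 5.92 to 13.1 in the delta columns. Alpha cell markers in the beta columns were higher in the FSK pools, at 3.71 CP10K in WT FSK against 1.68 in WT CON and 4.45 in mutant FSK against 2.08 in mutant CON, and their part in the FSK ratios was not tested. From 387 genes (mutant FSK) to 5918 (mutant Ex-4) had the value 0 throughout a condition, over its 9 cell types. This includes genes that are well counted elsewhere, so such a gene was taken as having no value in that condition rather than a level of 0. Among the 8 genes this touched *Nr4a3*, which had a value in mutant FSK only, and *Fos*, which had none in mutant Ex-4.

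A ratio between columns was taken where they held at least 20 counts together, and a gene is called higher or lower here when the CP10K ratio was 1.5-fold or more in that direction. In beta cells 7 of the 8 genes passed this count minimum, all except *Nr4a3*, and a gene could pass it through the condition in which it is high. In WT FSK against WT CON, 5 of 7 were higher and 1 lower, where 7.57% of 10653 genes were higher and 34.2% lower. In mutant FSK against mutant CON, 4 of 7 were higher and 0 lower, against 21.7% and 33.3% of all genes. In WT Ex-4 against WT CON, 3 of 7 were higher and 1 lower, against 30.8% and 11.7%. In mutant Ex-4 against mutant CON, 1 of 6 was higher and 1 lower, against 5.44% and 6.06%. The median ratio of all tested genes was itself off 1, at 0.802 in WT FSK, 0.896 in mutant FSK, 1.16 in WT Ex-4 and 0.978 in mutant Ex-4.

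**Figure D1:**
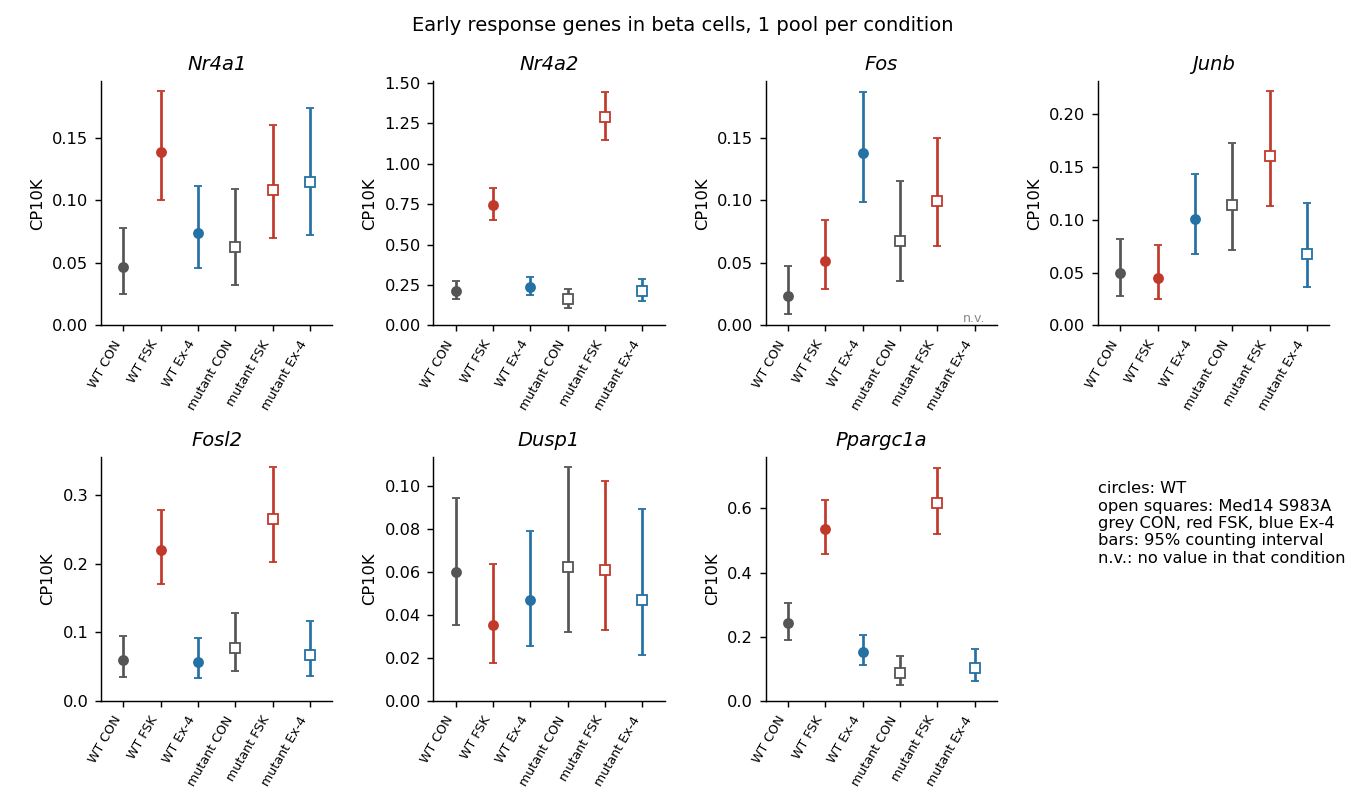
CP10K of 7 genes in beta cells, with 1 point per condition and vertical bars for the exact 95% Poisson interval of the count; filled circles are WT, open squares mutant, grey CON, red FSK and blue Ex-4, and n.v. marks the condition in which *Fos* has no value. *Nr4a2*, *Fosl2* and *Ppargc1a* stand above their other conditions in both FSK pools, while *Fos* is highest in WT Ex-4 and *Dusp1* stays between 0.0355 and 0.0623 CP10K.

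The NR4A receptors bind DNA and activate transcription without a known physiological ligand, so that their activity follows their amount. *Nr4a2* (chr2:56996842-57014331, − strand, GRCm39) was the most abundant of the 3 in beta cells. Its level was 0.216 CP10K in WT CON (65 counts, interval 0.167 to 0.275). The WT FSK level was 0.747 (231 counts, 0.653 to 0.849), and that of WT Ex-4 was 0.238 (71 counts, 0.186 to 0.30). Mutant beta cells gave 0.161 in CON (31 counts, 0.109 to 0.229), 1.29 in FSK (297 counts, 1.15 to 1.44) and 0.214 in Ex-4 (41 counts, 0.154 to 0.290). Both FSK pools were thus above every other pool with no overlap of intervals, and mutant FSK was above WT FSK, while the 4 remaining pools overlapped. The FSK ratio was 3.46 in WT (95% interval 2.62 to 4.63) and 8.01 in the mutant (5.52 to 12). These intervals of the FSK ratio do not overlap. The mutant ratio draws on a lower untreated level as well as a higher FSK level, with mutant FSK at 1.73 times WT FSK (1.45 to 2.06) and mutant CON at 0.75 times WT CON (0.470 to 1.16). Without a trend on gene length over all genes, mutant FSK was at 1.33 times WT FSK, within 1.5-fold. Ex-4 gave a *Nr4a2* ratio of 1.10 in WT (0.78 to 1.57) and 1.33 in the mutant (0.81 to 2.19), so at 16 h a difference from the untreated level was not detectable in either genotype.

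*Nr4a1* (chr15:101151980-101172681, + strand) was scarcer, with 14, 43 and 22 counts (0.046, 0.139 and 0.074 CP10K) in the CON, FSK and Ex-4 pools of WT. The mutant pools held 12, 25 and 22 counts (0.062, 0.109 and 0.115 CP10K). WT FSK was above WT CON without overlap of their intervals, and the 3 mutant pools overlapped with each other. The FSK ratio was 2.99 (1.60 to 5.92) in WT and 1.74 (0.84 to 3.80) in the mutant. The Ex-4 ratio was 1.59 (0.78 to 3.36) in WT and 1.84 (0.87 to 4.09) in the mutant, both past 1.5-fold with an interval that held 1. Without the length trend the WT ratio was 1.2, within 1.5-fold. *Nr4a3* (chr4:48045153-48086447, + strand) was counted in mutant FSK only, with 9 counts over the 9 cell types, of which 2 were in alpha cells, 4 in delta cells and 0 in beta cells. A count of 0 in mutant FSK beta cells allows up to 3 counts, and no ratio was taken for *Nr4a3*.

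The AP-1 genes encode basic leucine zipper proteins that bind DNA as dimers: FOS and FOSL2 need a JUN partner, and JUNB can dimerize with either. The 3 genes did not all follow 1 pattern. *Fosl2* (chr5:32292707-32315186, + strand) moved like *Nr4a2*. Its level in WT beta cells was 0.060 CP10K untreated (18 counts), 0.220 with FSK (68 counts) and 0.057 with Ex-4 (17 counts), then 0.078 (15 counts), 0.265 (61 counts) and 0.068 (13 counts) in mutant CON, FSK and Ex-4. Both FSK pools lay above the 4 others without overlap of intervals, and they overlapped with each other. The ratio of FSK to CON was 3.68 (2.16 to 6.57) in WT and 3.40 (1.91 to 6.44) in the mutant, and that of Ex-4 to CON was 0.95 (0.46 to 1.96) and 0.87 in the same order. *Fosl2* was denser in endothelial columns, at 1.05 to 6.11 CP10K. Endothelial markers in the beta columns were at 0.0323 CP10K in WT FSK against 0.0963 in WT CON, with *Cdh5*, *Flt1* and *Plvap* at 0 in WT FSK, and at 0.187 in mutant FSK against 0.177 in mutant CON.

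*Fos* (chr12:85520658-85524047, + strand) was highest in WT Ex-4. WT beta cells held 7 counts in CON (0.0232 CP10K, interval 0.00934 to 0.0479), 16 in FSK (0.0517, 0.0296 to 0.0840) and 41 in Ex-4 (0.138, 0.0987 to 0.187). Mutant beta cells held 13 counts in CON (0.0675 CP10K) and 23 in FSK (0.0999). The WT Ex-4 level was above WT CON and WT FSK with no overlap, but overlapped both mutant levels. The Ex-4 ratio in WT was 5.92 (2.63 to 15.6), and no Ex-4 ratio was taken for the mutant. In mutant Ex-4 the smallest sum above 0 of any gene over the 9 cell types was 10 counts. A gene with fewer counts may thus be among those listed at 0 there. Over the same cell types *Fos* had 25 counts in mutant CON and 46 in mutant FSK. Whether its level in mutant Ex-4 was low was not tested. FSK gave 2.23 (0.87 to 6.40) in WT and 1.48 (0.72 to 3.18) in the mutant, with intervals that held 1.

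*Junb* (chr8:85701113-85705359, − strand) was, like *Fos*, higher in WT Ex-4 than in WT CON. Its level was 0.050, 0.045 and 0.101 CP10K in WT CON, FSK and Ex-4 (15, 14 and 30 counts), and 0.114, 0.161 and 0.068 in the mutant (22, 37 and 13 counts). The Ex-4 ratio was 2.02 (1.05 to 4.04) in WT and 0.59 (0.27 to 1.23) in the mutant, and the FSK ratio was 0.91 (0.41 to 2.02) and 1.41 (0.81 to 2.50). *Fos* spans 3.39 kb and *Junb* 4.25 kb, and short genes as a group moved with the Ex-4 and FSK columns. The trend over all genes at these lengths was +1.11 and +1.06 on the log2 scale for WT Ex-4 against WT CON, and −1.09 and −1.03 for WT FSK against WT CON. With that trend removed, the log2 ratio of *Fos* in WT went from 2.57 to 1.46 for Ex-4 and from 1.15 to 2.24 for FSK. That of *Junb* in WT went from 1.02 to −0.04 for Ex-4, so that the higher call was lost, and from −0.14 to 0.89 for FSK, a call gained. In mutant FSK *Fos* went from 0.56 to 1.82 and *Junb* from 0.49 to 1.67, both calls gained. With the trend removed, 6 of 7 genes were higher with FSK in either genotype. Of all genes, 15.2% were then higher in WT FSK, up from 7.57%, and 23.0% in mutant FSK, against 21.7% before. The order of Ex-4 and FSK for *Fos* and *Junb* in WT beta cells therefore depended on this step. *Junb* also overlaps *Prdx2* on the opposite strand, and no source used here says if reads were assigned by strand.

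*Dusp1* removes activating phosphates from p38, JNK and ERK. It carries the only full cAMP response element of the 8 windows above, and it gave no higher call in any beta cell comparison with an untreated pool. Levels ran from 0.0355 CP10K in WT FSK to 0.0623 in mutant CON, on 9 to 18 counts per column, and all 6 intervals overlapped. The FSK ratio was 0.59 (0.25 to 1.33) in WT, past 1.5-fold in the lower direction with an interval that held 1, and 0.98 (0.42 to 2.31) in the mutant. Ex-4 gave 0.79 (0.36 to 1.67) and 0.75. Of these 4 intervals, only that of mutant FSK reached a doubling. Without the trend on gene length described for *Fos* and *Junb*, the WT FSK ratio was 0.68, within 1.5-fold. That step took *Dusp1* at its annotated span of 56.5 kb. Its exons together cover 3.32 kb, and the RefSeq start used above, 26727446, lies inside the span. The log2 trend was −0.19 in WT FSK and 0.10 in mutant FSK for *Dusp1*, against −1.09 and −1.26 for *Fos* at 3.39 kb. A shorter length for *Dusp1* was not tried, so its values without the trend depend on this annotation. The annotated span of *Dusp1* (chr17:26724564-26781102, − strand) overlaps 6 genes, among them *Ergic1* on the opposite strand.

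*Ppargc1a* (chr5:51611592-51725068, − strand) encodes PGC-1α, a coactivator of nuclear receptors that raises mitochondrial biogenesis and, in liver, gluconeogenesis. WT beta cells held 0.242 CP10K untreated (73 counts, 0.190 to 0.305), 0.536 with FSK (166 counts, 0.458 to 0.625) and 0.154 with Ex-4 (46 counts, 0.113 to 0.206). Mutant beta cells held 0.0883 in CON (17 counts, 0.0514 to 0.141), 0.616 in FSK (142 counts, 0.519 to 0.727) and 0.104 in Ex-4 (20 counts, 0.0638 to 0.161). The order was thus both FSK pools, which overlapped, then WT CON, WT Ex-4, mutant Ex-4 and mutant CON, where WT CON overlapped WT Ex-4 and lay above both mutant pools. FSK gave a ratio of 2.21 (1.67 to 2.96) in WT and 6.98 (4.21 to 12.3) in the mutant. The FSK levels of the genotypes were close, with mutant FSK at 1.15 times WT FSK (0.912 to 1.45), and it was the untreated level that differed, at 0.36 (0.20 to 0.62) in mutant CON against WT CON. Ex-4 gave 0.64 (0.43 to 0.93) in WT, lower than untreated, and 1.18 (0.59 to 2.40) in the mutant. The lower call in WT was lost, at 0.76, without the length trend, and at 0.68 when the counts were scaled without ribosomal RNA linked and mitochondrial genes.

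**Figure D2:**
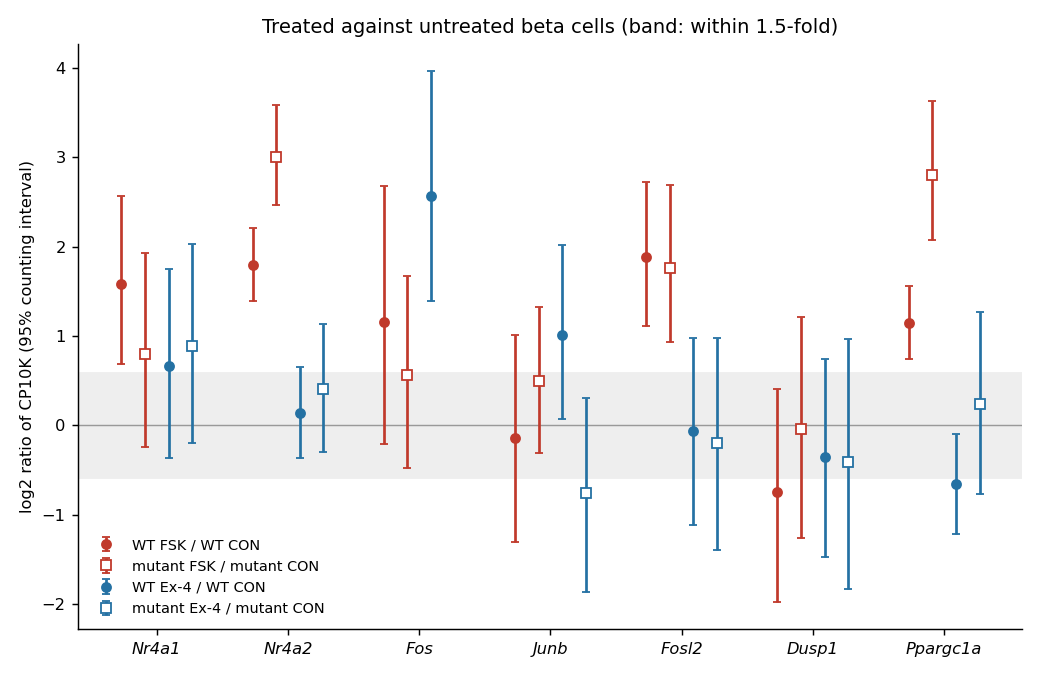
Log2 ratio of CP10K between a treated and the untreated beta cell pool of the same genotype, with exact 95% counting intervals as bars; filled circles are WT, open squares mutant, red FSK, blue Ex-4, and the grey band marks ratios within 1.5-fold. *Nr4a2*, *Fosl2* and *Ppargc1a* clear the band with FSK in both genotypes, and for Ex-4 only the interval of *Fos* in WT does.

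Between the untreated beta cell pools, mutant CON against WT CON, 2 of 7 genes were higher and 1 lower. Among all 11185 genes 27.3% were higher and 21.7% lower, so these counts are near the shares of all genes. *Fos* was at 2.91 (1.08 to 8.60), *Junb* at 2.29 (1.14 to 4.76) and *Ppargc1a* at 0.36. The length trend for this contrast was 1.14 for *Fos*, 1.06 for *Junb* and −0.43 for *Ppargc1a* on the log2 scale, and without it the log2 ratios were 0.40, 0.13 and −1.02, so that only *Ppargc1a* kept its call, and *Nr4a2* became a lower call at a ratio of 0.58. *Nr4a1*, *Nr4a2*, *Fosl2* and *Dusp1* had ratios of 1.34, 0.75, 1.30 and 1.04 with intervals that held 1. The same 17 ribosomal RNA linked and mitochondrial genes took 3.49% of beta cell counts in WT CON, 12% in mutant CON, 9.26% in WT Ex-4 and 14.9% in mutant Ex-4, but 2.84% and 2.79% in WT FSK and mutant FSK. Scaling without them left each beta cell count of higher genes against CON as it was, and the count of lower genes went from 1 to 0 in WT Ex-4 with the loss of *Ppargc1a*.

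The remaining comparisons do not use an untreated pool. In WT FSK against WT Ex-4, 4 of 7 genes were higher and 2 lower, where 13.8% of 11257 genes were higher and 49.8% lower. *Fosl2* was at 3.85 (2.24 to 7.0), *Ppargc1a* at 3.48 (2.50 to 4.93), *Nr4a2* at 3.13 (2.39 to 4.15) and *Nr4a1* at 1.88 (1.10 to 3.31), and the lower genes were *Fos* at 0.38 (0.20 to 0.69) and *Junb* at 0.45 (0.22 to 0.87). With the length trend of this contrast removed both turned, to 1.96 for *Fos* and 2.14 for *Junb*, and 6 of 7 genes were higher and 0 lower. The share of all genes without the trend was not taken for this contrast, so these counts have no background. In mutant FSK against mutant Ex-4, 4 of 6 were higher and 0 lower, against 21.1% and 31.7% of genes. *Nr4a2* was at 6.02 (4.33 to 8.57), *Ppargc1a* at 5.90 (3.68 to 9.96), *Fosl2* at 3.90 (2.12 to 7.74) and *Junb* at 2.37 (1.23 to 4.85), while *Nr4a1* was at 0.94. In mutant FSK against WT FSK, 4 of 7 were higher, against 21.0% of genes, with *Junb* at 3.55 (1.87 to 7.11), *Fos* at 1.93 (0.98 to 3.91), *Nr4a2* at 1.73 and *Dusp1* at 1.71 (0.72 to 4.16). Of the 7 genes 0 were lower there, against 1.98% of all genes. Without the length trend 2 of 7 were higher (*Junb* at 2.06 and *Dusp1* at 1.63) and 1 lower (*Nr4a1* at 0.62), and *Nr4a2*, at 1.33, was no longer called. The share of all genes without the trend was not taken here either. *Dusp1* and *Nr4a1* entered this step at annotated spans of 56.5 and 20.7 kb, and the RefSeq start of each lies inside its span. *Fos*, at 3.39 kb, went from 1.93 to 1.08, so the calls of *Dusp1* and *Nr4a1* depend on the length taken.

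Set against exon length, which only approximates the content of nuclear RNA because introns are also counted, the order of levels changed. In WT FSK beta cells *Nr4a2* was at 0.0910 CP10K per exon kb, *Ppargc1a* at 0.0760, *Fos* at 0.0219, *Fosl2* at 0.0211, *Junb* at 0.0190, *Nr4a1* at 0.0127 and *Dusp1* at 0.0107. In WT CON *Ppargc1a* led at 0.0343, followed by *Nr4a2* at 0.0263 and *Junb* at 0.0209.

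Alpha cells secrete glucagon. In WT FSK against WT CON, 1 of 2 genes with enough counts was higher, where 11.7% of 5332 genes were higher and 18.4% lower. This was *Nr4a2*, with 7 counts (0.167 CP10K) in WT CON and 30 (1.11) in WT FSK, a ratio of 6.67 (2.87 to 18). In mutant FSK against mutant CON, 4 of 4 were higher, and 0 lower, against 23.8% and 13.2% of 8639 genes. None of the 4 reached 20 counts in mutant CON, so each passed the count minimum with the help of its higher FSK count. *Dusp1*, with 9 counts in each pool, did not pass, nor did *Nr4a1* (2 and 12) and *Fos* (2 and 13). The count of higher genes is therefore not evidence about the 8 genes as a set. *Nr4a2* went from 19 counts (0.235 CP10K) to 95 (1.21), a ratio of 5.15 (3.13 to 8.94), and its level in the FSK pools of the genotypes was close, at a ratio of 1.09 (0.713 to 1.70). *Fosl2* was at 4.12 (1.33 to 16.9), *Ppargc1a* at 2.75 (1.02 to 8.58) and *Junb* at 2.58 (0.945 to 8.11) in the mutant. *Ppargc1a* in WT alpha cells differed from its pattern in beta cells, with 17, 9 and 8 counts (0.405, 0.334 and 0.177 CP10K) in CON, FSK and Ex-4 and an FSK ratio of 0.82 (0.32 to 1.95). Untreated mutant alpha cells held less of it, 6 counts (0.0741 CP10K), a ratio to WT of 0.18 (0.059 to 0.486). Summed beta cell markers in the alpha columns were also highest in WT CON, at 34.0 CP10K, with 18 in WT FSK, 19.7 in WT Ex-4 and 15.4 in mutant CON. They did not follow *Ppargc1a* in every column. WT FSK held less of them than WT Ex-4 but more *Ppargc1a*. Mutant FSK held the least, 12.7 CP10K, with *Ppargc1a* at 0.204, and mutant Ex-4 held 16.0, with *Ppargc1a* at 0.139. The part of these markers in the *Ppargc1a* values was not tested. That contrast, mutant CON against WT CON in alpha cells, had 0 of 2 genes higher and 1 lower, against 24.0% and 26.2% of all genes. Of the comparisons with Ex-4, WT Ex-4 against WT CON had 0 of 1 higher and 1 lower (*Ppargc1a*, 0.44, 0.16 to 1.07), against 21.8% and 22.8% of genes, and mutant Ex-4 against mutant CON had 0 of 1 in either direction (*Nr4a2*, 0.91, 0.45 to 1.86), against 5.21% and 10.9%. FSK against Ex-4 gave 1 of 1 higher in WT, *Nr4a2* at 7.18 (3.09 to 19.4), against 18.9% of genes higher and 25.6% lower. In the mutant it gave 3 of 4 higher, against 28.0% and 10.3%, with *Nr4a2* at 5.64 (3.34 to 10.1), *Fosl2* at 4.04 (1.3 to 16.6) and *Junb* at 1.68 (0.69 to 4.36). Between the FSK pools, 0 of 3 were higher in the mutant and 1 lower, *Ppargc1a* at 0.61 (0.25 to 1.56), against 24.5% and 6.04%.

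Delta cells secrete somatostatin. In WT FSK against WT CON the only gene with enough counts was *Ppargc1a*, and it was higher, where 18.1% of 5458 genes were higher and 20.7% lower. WT delta cells held 5 counts (0.138 CP10K) untreated, 44 (1.03) with FSK and 8 (0.185) with Ex-4, and the mutant held 4 (0.0706), 38 (0.602) and 4 (0.0724) in the same order. The FSK ratio was 7.46 (2.97 to 24.1) in WT and 8.52 (3.07 to 32.9) in the mutant. In mutant FSK against mutant CON, 3 of 3 genes were higher, against 27.7% of 7557 genes higher and 22.0% lower: *Ppargc1a*, *Fosl2* at 9.87 (3.59 to 37.8) and *Nr4a2* at 4.23 (1.84 to 11.3). These 3 held 4, 4 and 7 counts in mutant CON, so each passed the count minimum through its FSK count, as *Ppargc1a* did in WT. *Nr4a1* (4 and 15), *Fos* (5 and 5), *Junb* (3 and 6) and *Dusp1* (1 and 1) did not pass. The delta counts of higher genes with FSK, against CON or Ex-4, are therefore not evidence about the 8 genes as a set. *Fosl2* went from 4 counts to 44 in the mutant (0.0706 to 0.697 CP10K) and from 1 count to 14 in WT (0.0276 to 0.327 CP10K), the latter under the count minimum. *Nr4a2* in delta cells was uneven between genotypes, with 2 counts each in WT CON and WT FSK (0.0552 and 0.0468 CP10K) and 33 in mutant FSK (0.523 CP10K), a ratio between the FSK pools of 11.2 (2.86 to 96.1). Between these pools 3 of 4 genes were higher in the mutant (*Nr4a2*, *Fosl2* at 2.13, 1.14 to 4.20, and *Nr4a1* at 2.03, 0.70 to 7.14) and 1 lower, *Ppargc1a* at 0.58 (0.37 to 0.92), against 21.4% and 5.25% of genes. FSK against Ex-4 gave 1 of 1 higher in WT, *Ppargc1a* at 5.55 (2.59 to 13.7), against 21.7% higher and 33.3% lower. In the mutant it gave 3 of 3, against 29.3% and 20.8%, with *Nr4a2* at 9.63 (3.02 to 49.1), *Ppargc1a* at 8.31 (2.99 to 32.1) and *Fosl2* on 44 counts against 1. Too few counts of the 8 genes were present in delta cells to compare Ex-4 with CON in WT (25.9% of all genes higher and 17.4% lower) or in the mutant (8.12% and 9.85%), or mutant CON with WT CON (25.5% and 24.3%).

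**Figure D3:**
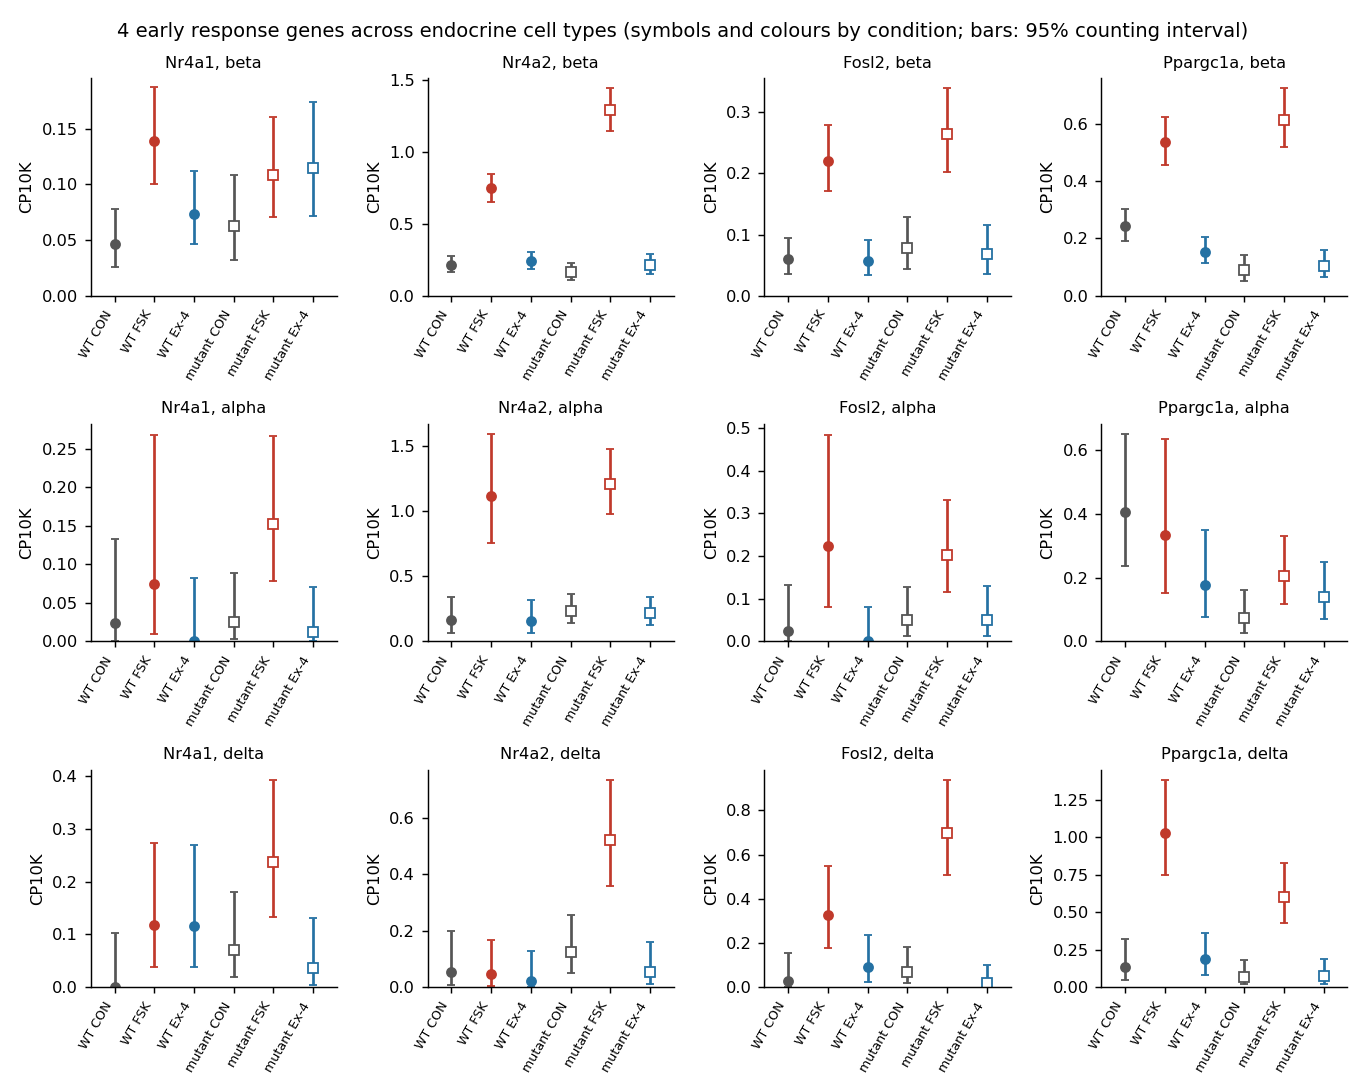
CP10K of *Nr4a1*, *Nr4a2*, *Fosl2* and *Ppargc1a* (columns) in beta, alpha and delta cells (rows), each panel with its own axis from 0; circles are WT, open squares mutant, grey CON, red FSK, blue Ex-4, and bars are exact 95% Poisson intervals. *Nr4a2* stands above CON in both FSK pools of beta and alpha cells but in delta cells only in mutant FSK, and *Ppargc1a* stands above CON in both FSK pools of beta and delta cells but not in WT alpha cells.

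Among 12 measured genes of cAMP feedback and other classic CREB targets, 10 had enough counts in beta cells for FSK. Of these, 6 were higher and 0 lower in WT, and 7 higher and 1 lower in the mutant, with median log2 ratios of 0.78 and 1.28 where all tested genes had −0.32 and −0.16. Among all tested genes 7.57% were higher in WT and 21.7% in the mutant. *Pde10a*, a phosphodiesterase that degrades cAMP, was at 3.46 times the untreated level in WT and 4.69 in the mutant. *Irs2*, an adaptor of insulin signaling, was at 2.64 and 2.58, and *Gem*, a small GTPase that restrains calcium channels, at 2.38 and 2.69. After Ex-4, 2 of 9 were higher and 2 lower in WT, against 30.8% and 11.7% of all genes. In the mutant 0 of 9 passed in either direction, where few of all genes did, 5.44% higher and 6.06% lower. *Rgs2*, which limits G protein signaling, was at 2.02 in WT Ex-4. The kinase gene *Sik1*, whose product restrains CRTC coactivators, was at 9.34 (3.59 to 30.8) in WT and 6.53 (3.53 to 13.2) in mutant alpha cells after FSK, and at 10.2 (3.21 to 51.6) and 3.31 (1.88 to 6.16) in delta cells. In the same order *Pde10a* was at 7.99, 9.90, 3.69 and 4.46, and *Irs2* at 5.98, 4.23, 8.01 and 3.38. In alpha cells 5 of 6 genes of this list were higher with FSK in WT and 8 of 9 in the mutant, against 11.7% and 23.8% of all genes. In delta cells 3 of 7 and 6 of 8 were higher, against 18.1% and 27.7%, and 0 were lower in either cell type.

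Other MAP kinase phosphatases were spread in both directions in beta cells. With FSK, 4 of 5 with enough counts were higher and 1 lower in WT, where 7.57% and 34.2% of all genes were. In the mutant 3 of 6 were higher and 2 lower, against 21.7% and 33.3%. *Dusp10*, which acts on JNK and p38, was at 4.66 (4.06 to 5.38) in WT and 6.42 (5.25 to 7.92) in the mutant, and *Dusp4*, a nuclear phosphatase of ERK, at 3.66 (2.33 to 5.94) and 2.47 (1.5 to 4.21). *Dusp10* was also at 4.17 and 6.24 in alpha cells and 4.80 and 7.42 in delta cells. After Ex-4 in WT beta cells, 2 of 7 were higher and 1 lower, against 30.8% and 11.7% of all genes, with *Dusp16* at 0.48 (0.34 to 0.66). In mutant Ex-4 0 of 6 were higher and 2 lower, against 5.44% and 6.06%.

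Among the other AP-1 genes with FSK, 1 of 5 was higher and 3 lower in WT beta cells, and 1 of 4 higher and 2 lower in the mutant, where 34.2% and 33.3% of all genes were lower, with *Jund* at 0.20 (0.068 to 0.494) and 0.37 (0.208 to 0.642). With Ex-4, 3 of 4 were higher in WT and 0 of 3 in the mutant, against 30.8% and 5.44% of all genes. *Jun* was at 2.04 (1.45 to 2.90), *Jund* at 2.09 (1.32 to 3.38) and *Maff* at 2.86 (1.08 to 8.87) in WT. Of other immediate early genes, 1 of 4 was higher and 1 lower with FSK in WT and 2 of 8 higher and 3 lower in the mutant, where *Cebpd* was at 7.40 (2.91 to 24.1) and 2.41 (1.10 to 5.86). With Ex-4 in WT 1 of 5 was higher, *Klf10* at 2.02 (0.862 to 5.11). Among all genes 7.57% were higher and 34.2% lower with FSK in WT, 21.7% and 33.3% in the mutant, and 30.8% higher with Ex-4 in WT.

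Of relatives and partners of PGC-1α, 0 of 8 were higher and 1 lower with FSK in WT beta cells, against 7.57% and 34.2% of all genes. In the mutant 4 of 8 were higher and 1 lower, against 21.7% and 33.3%. With Ex-4 in WT 2 of 8 were higher, near the 30.8% of all genes, and 2 lower, against 11.7%, among them *Esrrg*, a nuclear receptor partner, at 0.47 (0.437 to 0.499). Of 3 delayed cAMP genes that the study followed in a rat insulinoma line, *Plat*, the tissue-type plasminogen activator, had 2 counts in WT CON and 165 in WT FSK, a ratio of 80.3 (21.9 to 669). In the mutant it had 3 and 189, a ratio of 52.7 (17.7 to 258). *Osbpl6* was within 1.5-fold in both genotypes, and *Kdr* had too few counts for a ratio.

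Heat shock genes, taken as a sign of handling, moved in beta cells with the same pools. With FSK, 7 of 8 were lower in WT and 6 of 7 in the mutant, against 34.2% and 33.3% of all genes. With Ex-4 5 of 8 were higher in WT and 3 of 7 in the mutant, against 30.8% and 5.44%. Their summed level in the CON, FSK and Ex-4 pools was 2.92, 1.5 and 4.73 CP10K for WT, then 3.47, 1.79 and 4.34 for the mutant. *Hsp90aa1* was at 2.02 in WT Ex-4, *Hsph1* at 0.37 and 0.50, and *Dnajb1* at 0.34 and 0.49 (0.201 to 1.14) with FSK in WT and mutant. In alpha cells the summed level was not lower with FSK (2.34 in WT CON and 3.90 in WT FSK, 3.22 in mutant CON and 3.69 in mutant FSK). In delta cells it was 3.39 in WT CON and 1.64 in WT FSK, but 2.03 in mutant CON and 2.00 in mutant FSK. *Hsp90aa1* in delta cells was at 0.37 and 0.47 with FSK in WT and mutant. The part of these differences in the *Fos* and *Junb* values was not tested.

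**Figure D4:**
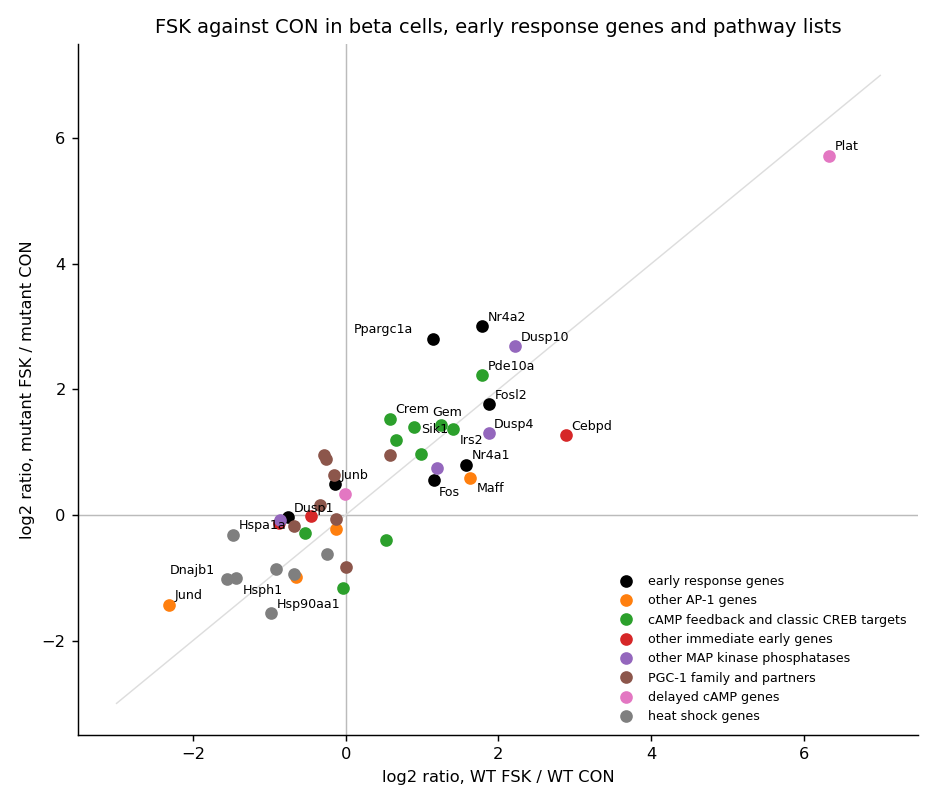
Log2 CP10K ratio of FSK to CON in WT (x axis) against mutant (y axis) beta cells for the early response genes (black) and the other lists (colours), genes with at least 20 counts in both comparisons; the grey diagonal marks equal ratios. The FSK and CON pools differ between the axes, and *Nr4a2*, *Fosl2* and *Ppargc1a* lie in the upper right with *Dusp10*, *Pde10a* and *Plat*, while *Jund* and heat shock genes lie in the lower left.

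Over the 18 beta, alpha and delta columns, the genes whose level on log2(CP10K + 0.1) was most like that of each gene were found by Pearson's r among about 9682 genes. For *Nr4a1* these were *Fosl2* (r = 0.85), *Dusp4* (0.84) and *Mirg* (0.81), and for *Nr4a2* they were *Ets2* (0.91), *Gcnt2* (0.87) and *Fam210a* (0.85). *Fosl2* was most like *Rap2a* (0.92), *Dner* (0.91) and *Gm379* (0.91), and *Ppargc1a* most like *Ppp2r5e* (0.97), *Mrps28* (0.94) and *AW554918* (0.93). For *Junb* the closest were *Fbxo22* (0.78), *Txn2* (0.73) and *Ets2* (0.73), and for *Dusp1*, *Smg5* (0.79), *Usp53* (0.78) and *Lonrf2* (0.78). *Fos*, over the 15 columns in which it has a value, was most like *Wdr90* (0.88), *Tmem176b* (0.85) and *Spag1* (0.84). The columns of a condition share islets and libraries, and those of a cell type share a depth, so these are descriptions of 1 table.

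In the other cell types counts were low. Over the 8 genes, the CON, FSK and Ex-4 endothelial columns of WT islets summed to 55, 52 and 13 counts on totals of 122420, 62177 and 55536, and those of mutant islets to 54, 84 and 29 on 159305, 144461 and 151867. *Fosl2* gave 7 to 53 of these counts, at 3.35, 6.11 and 1.26 CP10K in WT and 1.51, 3.67 and 1.05 for the mutant. Columns annotated as muscle gave 7 untreated, 41 with FSK and 15 with Ex-4 for WT islets, and 10, 36 and 7 for mutant islets. There *Fosl2* had 4 counts (1.56 CP10K) in WT CON and 28 (5.79) in WT FSK, and 3 (0.488) and 16 (1.84) in the mutant. *Ppargc1a* gave at most 1 count in any endothelial column.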

How the data were processed

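The authors barcoded nuclei by combinatorial indexing (8 sublibraries, each with nuclei of all 6 conditions), aligned reads to mm39 with split-pipe 1.4.0 and used Seurat 5.3.0: nuclei in the lowest and highest 15 percentiles of counts or features, or above 1% mitochondrial, were removed, then SCTransform, Harmony, CellKb annotation and downsampling to 2500 nuclei per sample followed. The deposited table holds natural log values, ln(1 + 10000 × count / column total), by the authors, in 54 columns (6 conditions by 9 cell types). It is not said if these pools sum raw counts or SCTransform-corrected counts. No column was left unmapped, and each was read as a pool of 1 condition and cell type.

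Counts were recovered by undoing the log, and 100% of them came out whole at a tolerance of 0.001 (the farthest was 6.39e-05 away). Levels carry exact Poisson and ratios exact conditional (Clopper-Pearson) 95% intervals, for counting error only. A call needed 1.5-fold and 20 counts in both columns together, and a count of 0 was taken to allow up to 3 counts. With 1 pool per condition no tool for replicated counts was applicable. The call was tested on simulated data. Named genes were the 8 genes, list genes at 2-fold or more in FSK in both genotypes or in Ex-4 in WT beta cells, and the 3 genes most like each member by Pearson's r; *Osbpl6* and *Kdr* were named because their list has 3 genes. Genes and lists were chosen with earlier results of these data known. Listed genes that are not rows of the table were not analysed here. Alternatives were another scale (log2(CP10K + 1)), no filter, at least 50 counts, 2-fold, scaling without 17 ribosomal RNA linked and mitochondrial genes, the median ratio set to 1 and removal of a trend on gene length (16531 genes had a length, 831 not); taking listed zeros as 0 was added after seeing the data. Coordinates are GENCODE M39 (GRCm39), and promoter letters are RefSeq. The software was scipy 1.17.1, statsmodels 0.14.6, numpy 2.4.6, matplotlib 3.10.9 and pandas 2.3.3 under Python 3.11.15.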

Additional observations from a re-analysis of the deposited data

Results flagged for a closer look

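*Junb* in beta cells moved in opposite directions with Ex-4 in the genotypes, with a CP10K ratio to CON of 2.02 in WT (30 against 15 counts) and 0.594 in the mutant (13 against 22 counts). Each genotype has 1 pool per condition, so the difference was not tested, and the WT ratio is 0.972, within 1.5-fold, when a trend on gene length is removed.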

How the results depend on the processing

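On the log2(CP10K + 1) scale, where low genes cannot reach 1.5-fold, beta cells had 0 higher genes in WT FSK, 1 in mutant FSK, 0 in WT Ex-4, 0 in mutant Ex-4 and 0 higher and 0 lower in mutant CON against WT CON, and mutant FSK had 1 in alpha and 1 in delta cells. The shares of all genes, in the same order, were 1.44%, 4.78%, 0.816%, 0.0373%, 1.33% and 3.49% in beta cells. They were 3.43% in alpha and 6.58% in delta cells. At least 50 counts left 0 higher in beta cells for WT Ex-4, mutant Ex-4 and mutant CON against WT CON, 0 in WT FSK and 1 in mutant FSK of alpha cells, and 0 in both FSK comparisons of delta cells, since fewer genes could be compared. The shares of all genes were then 26.0%, 2.27% and 22.8% in beta cells, 10.6% and 22.3% in alpha cells, and 18.8% (WT) and 29.2% (mutant) in delta cells. A 2-fold threshold left 0 in mutant Ex-4 beta cells, against 1.42% of all genes. With the length trend removed, beta cells had 6 higher in WT FSK, 6 in mutant FSK, 1 in WT Ex-4 and, in mutant CON against WT CON, 0 higher and 2 lower, and the log2 ratio of *Junb* in WT Ex-4 was −0.0403 in place of 1.02. The cause of the length trend was not tested. Without a count filter, higher genes numbered 5 in WT FSK, 3 in WT Ex-4 and 2 in mutant Ex-4 of alpha cells, and 2 in WT FSK, 5 in mutant FSK, 1 in WT Ex-4 and 1 in mutant Ex-4 of delta cells. Of the other counts of higher or lower genes under an alternative, 100 stayed within 1.5 times the value given, and of single gene ratios 263 moved by less than their counting interval, 24 by more and 1 reversed. No library could be left out and no paired analysis was possible because each condition is 1 pool. Depth limits *Dusp1*, *Fos* and *Junb* in beta cells and all 8 genes in alpha and delta cells, where the highest count in a column was 95 (*Nr4a2* in mutant FSK alpha cells).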
